A study of Mus musculus with 2 samples.

Results

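Enteroendocrine nuclei were the nuclei of hormone-secreting cells of the gut lining, picked out from single-nucleus RNA profiles of mouse colon. They numbered 265 of 21034 nuclei, 102 of 8888 in the wild-type library and 163 of 12146 in the Pink1 knockout library. A nucleus was a member if it held at least 3 UMIs (unique transcript tags) over Chga, Chgb, Neurod1, Tph1, Gcg, Pyy, Insl5, Nkx2-2, Rfx6 and Cck from at least 2 of these genes. At least 1 of the tags had to be of Chga, Chgb, Neurod1, Nkx2-2 or Rfx6, and Muc2, the goblet cell mucin, had to stay under 0.5% of the nucleus's UMIs. These 10 genes and Muc2 therefore describe the members and support no statement about them.

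The libraries came from the colon of 15-week-old male mice on the C57BL/6 background, 1 from wild-type littermates and 1 from Pink1 knockouts, with the nuclei of 3 mice pooled in each. Pink1 is a mitochondrial kinase that gathers on damaged organelles and tags them for autophagy. Which part of the gene the knockout lacks, the sources used here do not say. Genotype, library and the labelled batch (1 for wild type, 2 for knockout) coincide and cannot be told apart, so differences below are between 2 libraries, without a replicate check and without a test.

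Enteroendocrine cells are scattered secretory cells that arise from crypt progenitors under the transcription factors Neurog3 and Neurod1 and store hormones or amines in dense-core granules. In the colon the main kinds are enterochromaffin cells, which make serotonin from tryptophan through Tph1, and L cells, which release glucagon-like peptides, peptide YY and Insl5. Both kinds sense nutrients, bacterial metabolites and stretch through membrane receptors and channels and fire like neurons.

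The members held 247240 wild-type and 386634 knockout UMIs of nuclear-encoded genes, and all CPM values below (a gene's UMIs relative to such a sum, on the usual CPM scale) were computed over sums of this kind. A wild-type member had a median of 2238 UMIs and 1308 genes and a knockout member 2046 UMIs and 1197 genes, against medians of 1902 and 1734 UMIs in the other epithelial nuclei. The deepest knockout member had 18132 UMIs, or 4.65% of that library's member UMIs. Although 28 barcodes occurred in both libraries, none of them was a member. Intervals in parentheses are exact 95% intervals for counting error only, and ratios are knockout over wild type. The 3 UMIs required were rarely just reached, as 7 wild-type and 2 knockout members held 3, and 74 and 139 held at least 10. Just outside lay 7 and 8 nuclei with 2 UMIs from 2 genes, 4 and 6 with enough UMIs but none of the 5 obligatory genes, and 2 and 4 above the Muc2 limit.

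The label was checked against markers that the rule did not use. Pink1 itself was too scarce to check here, at 3 UMIs in the members of each library. In the other epithelial nuclei it stood at 11.5 and 6.43 CPM, a ratio of 0.558 (0.431 to 0.721), so the transcript was lower but present in the library labelled knockout, and 3′ tags outside a deleted part check nothing. At least 1 UMI of an epithelial marker occurred in 91 of 102 wild-type and 154 of 163 knockout members, against 53.1% and 50.3% of nuclei outside the epithelium. That comparison group left out nuclei rich in the same markers by definition, so its lower share was partly fixed in advance and checks nothing. The stricter rule for epithelial nuclei, at least 2 such UMIs and more than of other lineages, was met by 61 and 127 members. Of 12 tuft cell markers, 8 (Pou2f3, Il25 and Alox5 among them) were at 0 in the members of both libraries, and the 12 summed to 8.09 and 20.7 CPM against 93.0 and 108 CPM in other epithelial nuclei. Summed goblet markers were 971 and 872 CPM against 8514 and 8919 CPM, and Muc2 belongs to both that list and the rule. With the rule genes included, 5.73% of 5933 genes were at least 4-fold above tuft-marked nuclei and 8.17% at least 4-fold above goblet-marked nuclei in both libraries. Enteric neurons share many granule genes with these cells, and the list of their markers summed to 299 and 176 CPM against 12.4 and 18.2 CPM in other epithelial nuclei, with Hand2 at 0. Smooth muscle markers summed to 243 and 155 CPM against 41.8 and 51.9 CPM, fibroblast markers to 76.8 and 142 CPM against 35.4 and 49.2 CPM, and immune markers to 16.2 and 46.6 CPM against 21.3 and 21.6 CPM. In the wild type 33 of the muscle UMIs were of Myh11 in 1 nucleus. Endothelial markers summed to 56.6 and 72.4 CPM against 9.64 and 14.5 CPM, with Cdh5 and Kdr at 0. Their 1 measured gene, Pecam1 (10 and 20 UMIs), was at least 4-fold above other epithelium in both libraries. Glial markers summed to 149.7 and 109 CPM against 156 and 181 CPM, with Sox10, S100b and Gfap at 0. Other epithelial nuclei had to hold more epithelial UMIs than UMIs of muscle, fibroblast, endothelial, immune and glial markers, which limited those sums in advance. The part of RNA of other lineages in the results was not tested.

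The regions before the starts of 2 genes for granule cargoes are shown because these genes mark the 2 kinds of nuclei described below and carry motifs of factors these cells are known for. Chgb encodes a chromogranin that packs dense-core granules, and Gcg encodes the precursor of the glucagon-like peptides. The 250 bases before the RefSeq start (GRCm38.p6) are printed 5′ to 3′ on the gene's strand. Chgb lies at chr2:132781392-132781641 on the plus strand, and its capitals mark a cyclic AMP response element, TGACGTCA, that begins 72 bases before the start. Gcg lies at chr2:62483654-62483903 on the minus strand, and its capitals mark CAGATG, an E-box of the kind bound by Neurod1 and its partners, at 139 and 83 bases before the start.
Chgb: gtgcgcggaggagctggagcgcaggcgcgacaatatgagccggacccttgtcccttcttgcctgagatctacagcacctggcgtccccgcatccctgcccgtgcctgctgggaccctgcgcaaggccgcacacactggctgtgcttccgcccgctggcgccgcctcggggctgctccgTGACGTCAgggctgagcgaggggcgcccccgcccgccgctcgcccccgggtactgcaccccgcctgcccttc
Gcg: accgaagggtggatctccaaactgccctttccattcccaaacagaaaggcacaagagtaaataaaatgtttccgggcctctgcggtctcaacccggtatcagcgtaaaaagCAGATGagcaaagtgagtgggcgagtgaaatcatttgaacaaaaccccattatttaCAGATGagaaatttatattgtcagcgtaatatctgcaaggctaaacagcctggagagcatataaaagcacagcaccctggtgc
Both strands were searched. TGACGTCA occurs in 1.55% and CAGATG in 14.4% of 32851 such windows, so the response element is the rarer match of the pair. Neither of the 2 windows of Tph1 held either motif. Of the other rule genes, Insl5 (before its second start), Nkx2-2 and Cck each held 1 CAGATG, and Chga, Neurod1, Pyy and Rfx6 held 0. A match is a description of the letters and not of binding.

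Enteroendocrine nuclei made up 1.15% (0.937 to 1.39) of wild-type and 1.34% (1.14 to 1.56) of knockout nuclei, a ratio of 1.17 (0.907 to 1.51). Of the members and other epithelial nuclei together they were 1.73% and 1.81%, a ratio of 1.05 (0.814 to 1.36). Counting only the 61 and 127 members that met the epithelial rule, the shares of all nuclei that met it were 1.04% and 1.42%, a ratio of 1.36 (0.996 to 1.88). The intervals of these 3 ratios included 1. With each nucleus first thinned to 500 UMIs and the rule then applied, 61 and 123 nuclei remained and the ratio was 1.48 (1.08 to 2.04). The size of the difference in share thus depended on how members were counted.

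Serotonin and peptide transcripts almost never met in the same nucleus. Members with Tph1 and without Gcg, Pyy or Insl5 numbered 54 of 102 in the wild type (52.9%, 42.8 to 62.9) and 99 of 163 in the knockout (60.7%, 52.8 to 68.3), called Tph1 nuclei below. Members with Gcg, Pyy or Insl5 and without Tph1 numbered 31 (30.4%, 21.7 to 40.3) and 46 (28.2%, 21.5 to 35.8), called peptide nuclei below. UMIs of both kinds occurred in 0 wild-type members (exact interval 0 to 3.55%) and in 2 knockout members. On the floor of 3 counts, the 0 allows a share of nuclei with such UMIs of up to 2.94%. The remaining 17 (16.7%) and 16 (9.82%) held neither. The split of the members into 2 arms was the same in shape in both libraries, as the plot of Tph1 against peptide UMIs shows.

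**Figure D1:**
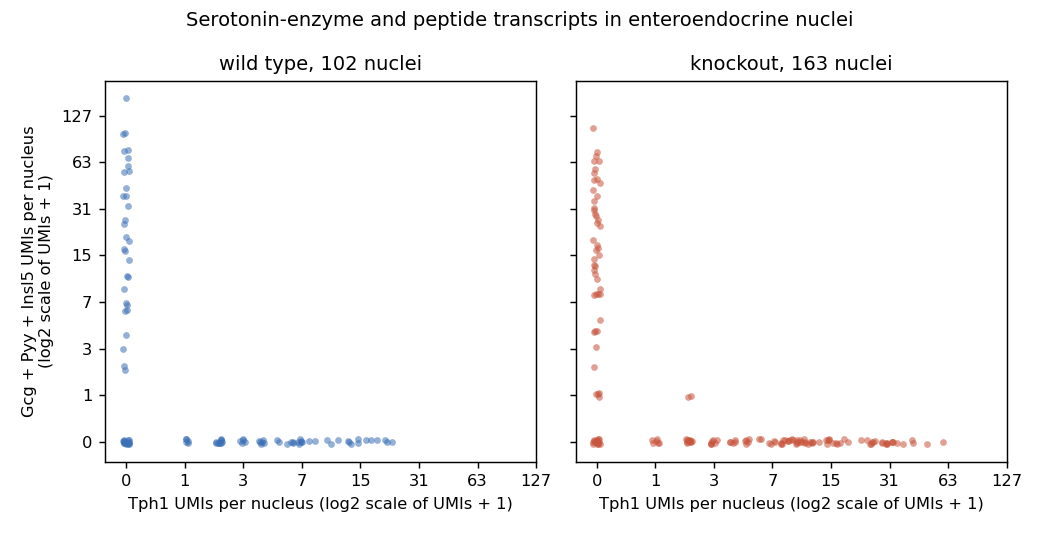
Each point is 1 enteroendocrine nucleus, with its Tph1 UMIs on the x axis and its summed Gcg, Pyy and Insl5 UMIs on the y axis, both on a log2 scale of UMIs + 1 with a small jitter, for 102 wild-type (left) and 163 knockout nuclei (right). Points lie along the axes and only 2 knockout nuclei lie off both.

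Since those 4 genes define the 2 kinds, the split was looked for without them. All nuclei of both libraries were clustered with the 10 rule genes and Muc2 left out, and at resolution 1 a single cluster of 28 took 99 of 102 wild-type (97.1%) and 158 of 163 knockout members (96.9%). It also took 19 other nuclei from each library, of which 15 and 18 carried at least 1 UMI of a rule gene. At resolution 2, with 41 clusters, 53 of 54 wild-type and 97 of 99 knockout Tph1 nuclei fell in one cluster and 30 of 31 and 45 of 46 peptide nuclei in another. No Tph1 nucleus fell in the peptide cluster, and 1 knockout peptide nucleus fell in the Tph1 cluster. Clustering on other genes therefore gave nearly the same separation.

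Within the peptide nuclei the 3 peptides overlapped widely. Pyy was detected in 30 of 31 wild-type and 40 of 46 knockout peptide nuclei, Gcg in 21 and 29, and Insl5, which encodes an insulin-like peptide of the hindgut, in 19 and 21. All 3 together were found in 14 of 31 (45.2%, 27.3 to 64) and 15 of 46 (32.6%, 19.5 to 48.0). Every nucleus with both Gcg and Insl5 also held Pyy. Thinned to 500 UMIs, the detected shares were 77.4% and 73.9% for Pyy, 54.8% and 45.7% for Gcg, and 35.5% and 30.4% for Insl5. Beside these, other epithelial nuclei, among which the rule left some Gcg nuclei, had a Pyy UMI in 0.983% and 1.18%, a Gcg UMI in 0.345% and 0.555% and an Insl5 UMI in 0.241% and 0.340%.

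Of 5933 genes with at least 20 member counts, 447 were at least 4-fold above the other epithelial nuclei in both libraries (7.53%), or 437 of 5923 without the 10 rule genes. They are a description, since the members were chosen against the same nuclei. The 16 with the highest lower bound, rule genes left out, led with Slc38a11, a relative of amino acid transporters, at 1351 and 1117 CPM against 0.735 and 0.701 CPM in other epithelium. Scn3a, a neuronal voltage-gated sodium channel, stood at 1921 and 1754 CPM against 2.04 and 3.86 CPM. Snap25, a core protein of vesicle fusion, stood at 1452 and 1402 CPM against 5.56 and 5.72 CPM. Rimbp2 and Cadps, which tie vesicles to calcium channels and prime them for release, and Rab3c, a vesicle GTPase, were also among the 16. So were the transcription factors Lmx1a and Myt1, the long non-coding RNA Miat and Pcsk1n, an inhibitor of the hormone-processing protease Pcsk1.

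Olfr78, a receptor for short-chain fatty acids, stood at 2067 and 1451 CPM against 3.19 and 2.63 CPM. Its UMIs lay in 33 of 54 wild-type and 64 of 99 knockout Tph1 nuclei, and in 8 of 31 and 13 of 46 peptide nuclei. Its gene model shares 7549 bases with that of Olfr560 on the same strand of chromosome 7, so reads of the 2 could have been split between them. The same holds for Cerkl, which shares 4231 bases on chromosome 2 with the rule gene Neurod1.

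**Figure D2:**
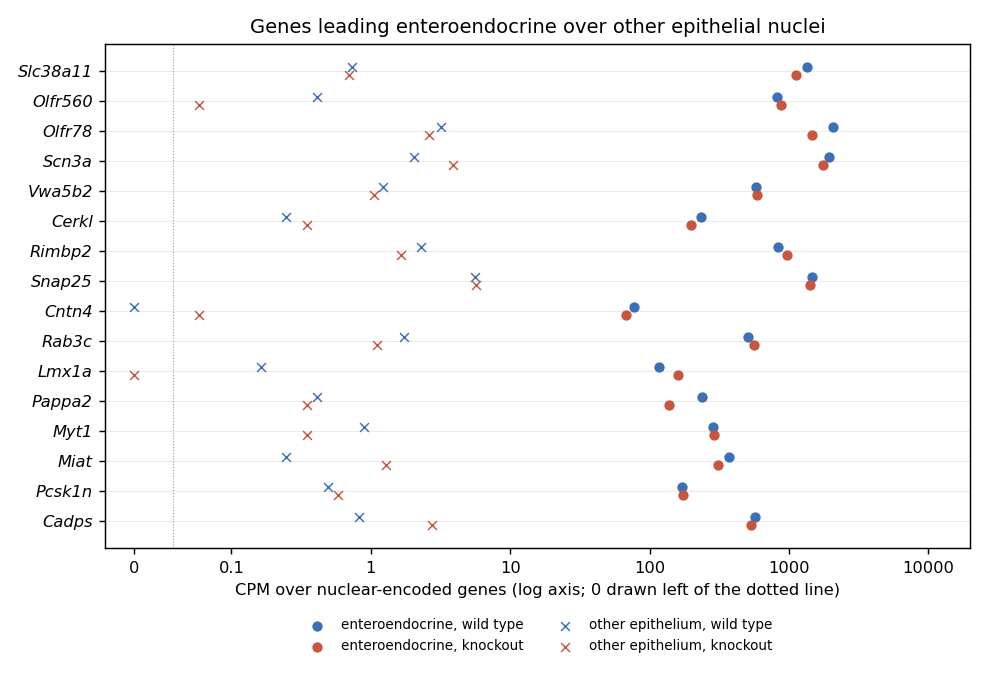
CPM (log axis, 0 left of the dotted line) of the 16 genes that led enteroendocrine over other epithelial nuclei, rule genes left out, with circles for enteroendocrine and crosses for other epithelial nuclei and blue and red for the wild-type and knockout libraries. The circles lie right of the crosses for every gene, from 2067 and 1451 CPM for Olfr78 down to 76.8 and 67.2 CPM for Cntn4, a cell adhesion molecule, and the libraries lie farthest apart for Pappa2, a protease, at 239 and 137 CPM.

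Of 11 measured enteroendocrine transcription factors outside the rule, 11 were at least 4-fold above other epithelium in both libraries. Insm1, a repressor of the endocrine lineage, stood at 138 and 103 CPM and St18 at 138 and 191 CPM. Neurog3, the factor that starts the lineage, had only 2 and 3 UMIs. All 19 measured genes of granules and exocytosis outside the rule passed the same limit, among them the peptide amidating enzyme Pam at 679.5 and 569 CPM against 113 and 93.6 CPM. Of the hormone list, Gip, Cartpt, Penk, Gal, Ucn3, Gast and Vip were at 0 in the members of both libraries. Ghrl (3 and 2 UMIs) and Sst (2 and 12 UMIs) were close to absent from the members. The cluster found without the rule genes held 18 and 17 Sst UMIs in 7 and 5 nuclei, so the rule left out nuclei with Sst. Among 14 measured channels, 12 passed, and among 9 measured sensing receptors, 6 did.

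The 2 kinds of nuclei differed in many genes that the rule did not use. Of 5420 genes, 92 (1.70%) were at least 4-fold higher in Tph1 nuclei and 66 (1.22%) at least 4-fold higher in peptide nuclei in both libraries. Rule genes are counted among these, 3 in the first set and 4 in the second. Of 12 measured genes of a list of enterochromaffin genes, 10 were at least 4-fold higher in Tph1 nuclei and 0 in peptide nuclei. Of 10 measured genes of a list of L cell genes, 9 were at least 4-fold higher in peptide nuclei and 0 in Tph1 nuclei. The genes named next were read off after their values were seen or belong to those lists.

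Of 7 measured genes of the serotonin pathway, which include the class-defining Tph1, 4 were at least 4-fold higher in Tph1 nuclei in both libraries. Of 14 measured channels 1 was. Slc18a1, the vesicular transporter that loads serotonin, had 118 wild-type and 275 knockout UMIs there (850.2 and 1171 CPM) against 1 and 2 UMIs in peptide nuclei (12.6 and 19.9 CPM). Piezo2, a stretch-activated channel, stood at 2435 and 1593 CPM against 75.4 and 59.8 CPM, and was seen in 41 of 54 and 61 of 99 Tph1 nuclei against 2 of 31 and 2 of 46 peptide nuclei. Slc38a11 stood at 1859 and 1712 CPM against 0 of 31 nuclei in the wild type, at least 49.3-fold higher when 3 counts are taken as the floor, and 59.8 CPM in the knockout. Lmx1a, a homeodomain factor, stood at 166 and 251 CPM against 0 and 19.9 CPM, and Tac1, the precursor of substance P, at 252 and 647 CPM against 25.1 and 19.9 CPM. Chgb, a rule gene, was also lopsided, at 4979 and 8470 CPM in Tph1 nuclei and 62.9 and 239 CPM in peptide nuclei. The receptor Olfr558 was seen in Tph1 nuclei alone of these 2 kinds, with 11 and 28 UMIs against 0 and 0.

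Peptide nuclei carried another set of transcription factors and receptors. Etv1, an ETS factor, stood at 1748 and 1915 CPM against 21.6 and 25.6 CPM in Tph1 nuclei. Isl1 stood at 779.5 and 858 CPM against 21.6 and 0 CPM, and Pax6 at 855 and 788 CPM against 72.1 and 59.6 CPM. Abcc8, the sulfonylurea receptor of the ATP-gated potassium channel, had 19 and 26 UMIs against 0 and 0, and Ffar1, a receptor for long-chain fatty acids, 16 and 14 against 0 and 0. Nts, the neurotensin gene, had 67 and 100 UMIs against 0 and 0, but from only 6 of 31 and 10 of 46 peptide nuclei. Agtr1a, an angiotensin receptor, and Slc6a19, a neutral amino acid transporter, were likewise at 0 in the Tph1 nuclei of both libraries. Among the rule's factors, Rfx6 leaned to peptide nuclei, at 704 and 538 CPM against 202 and 281 CPM.

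**Figure D3:**
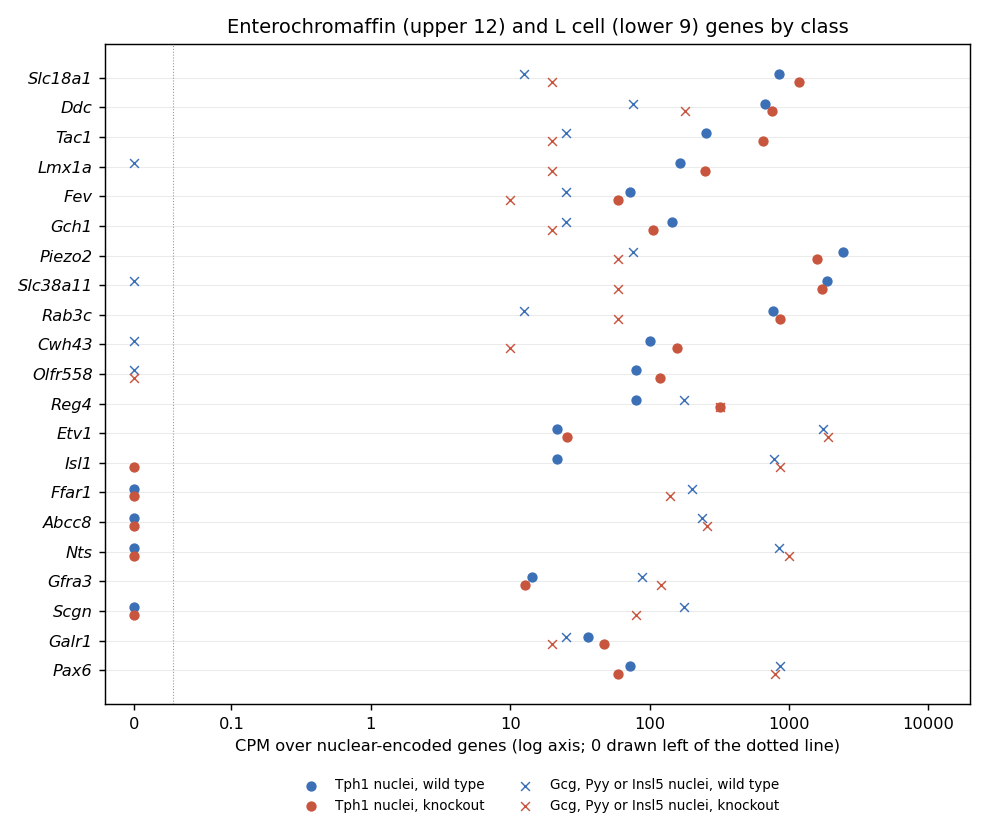
CPM (log axis, 0 left of the dotted line) of the 12 measured enterochromaffin genes (upper) and 9 of the 10 measured L cell genes (lower), with circles for Tph1 nuclei and crosses for peptide nuclei and blue and red for the wild-type and knockout libraries. Circles lie to the right of crosses for every upper gene but Reg4 and to the left for every lower gene but Galr1.

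Tph1, Chgb and Chga had higher levels in the knockout members, and as rule genes their values are a description. In the members, Tph1 had 370 wild-type and 1269 knockout UMIs, or 1497 (1348 to 1657) and 3282 CPM (3104 to 3468), a ratio of 2.19 (1.95 to 2.47). Chgb stood at 3191 and 5437 CPM, a ratio of 1.70 (1.57 to 1.85), and Chga at 1505 and 2703 CPM, a ratio of 1.80 (1.59 to 2.03). Across all 5933 genes, 14.9% were at least 1.5-fold higher and 12.0% at least 1.5-fold lower in the knockout members, with a median log2 ratio of -0.01. Within Tph1 nuclei the ratio was 2.02 (1.80 to 2.27) for Tph1, 1.70 (1.56 to 1.86) for Chgb and 1.81 (1.59 to 2.07) for Chga. These nuclei were themselves chosen by a Tph1 UMI.

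The difference was spread over the Tph1 nuclei. A wild-type Tph1 nucleus held 1 to 22 Tph1 UMIs with a median of 5, and a knockout one 1 to 58 with a median of 9. Tph1 made up a median of 0.226% of UMIs in wild-type and 0.491% in knockout Tph1 nuclei, and Chgb 0.267% and 0.665%. The ranges of single nuclei overlapped widely. In the cluster that was found without the rule genes, the ratios were 2.26 (2.01 to 2.54) for Tph1, 1.74 (1.6 to 1.89) for Chgb and 1.82 (1.62 to 2.06) for Chga. In the other epithelial nuclei, where these transcripts are scarce (0.817 and 2.10 CPM for Tph1), the ratios were 2.57, 2.16 and 2.07.

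Other genes of the serotonin pathway did not share one direction. Of 7 measured, Tph1 included, 2 were at least 1.5-fold higher (Tph1 and Slc18a2), 1 lower (Maoa) and 4 within that range. Of all 5933 genes, 14.9% were higher and 12.0% lower, and 7 genes are too few to set the pathway apart from these shares. Slc18a2, another vesicular transporter, had only 6 and 18 UMIs, a ratio of 1.92 (0.730 to 5.90). Slc18a1 had a ratio of 1.46 (1.18 to 1.80) and Ddc, the decarboxylase that finishes serotonin synthesis, 1.16 (0.929 to 1.46). Gch1, which starts the synthesis of the cofactor of Tph1, had 0.708 (0.411 to 1.22), and Maoa, which degrades serotonin, 0.613 (0.331 to 1.13), from 24 and 23 UMIs. Tac1 was higher, at 194 and 409 CPM with a ratio of 2.10 (1.52 to 2.97), and Piezo2 lower, at 1573 and 1040 CPM with a ratio of 0.661 (0.573 to 0.762). Piezo2 was as far apart within Tph1 nuclei, at 0.654 (0.563 to 0.760), and was detected in 75.9% of wild-type and 61.6% of knockout Tph1 nuclei. Reg4, a secreted lectin, stood at 109 and 277 CPM, a ratio of 2.53 (1.65 to 4.02).

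The peptides of L cells differed from one another in their ratios. Insl5 had 199 and 129 UMIs, or 805 (697 to 925) and 334 CPM (279 to 396), a ratio of 0.415 (0.330 to 0.520). One wild-type nucleus held 83 of the 199 UMIs, and leaving out the nucleus with most Insl5 in each library gave 0.540 (0.409 to 0.712). Pyy had 360 and 550 UMIs, or 1456 and 1423 CPM, a ratio of 0.977 (0.854 to 1.12). Within peptide nuclei the ratio was 0.514 (0.409 to 0.645) for Insl5 and 1.21 (1.06 to 1.38) for Pyy.

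Gcg depended on which nuclei were counted. In the members it had 522 and 484 UMIs, or 2111 and 1252 CPM, a ratio of 0.593 (0.523 to 0.672), and within peptide nuclei the ratio was 0.735 (0.648 to 0.834). The rule left out Gcg nuclei of the knockout library that lacked the obligatory genes: non-members held 33 Gcg UMIs in the wild-type and 247 in the knockout library, up to 48 in 1 nucleus. In the other epithelial nuclei Gcg stood at 1.72 and 11.2 CPM, a ratio of 6.54 (4.16 to 10.8). In the cluster found without the rule genes the ratio was 0.834 (0.743 to 0.937), and in its peptide subcluster, with 529 and 667 UMIs, 0.940 (0.837 to 1.06). Insl5 had a ratio of 0.494 (0.394 to 0.618) there. The interval of Insl5 thus lay below 1 for the members, the cluster and its subcluster, and that of Gcg for the first 2 of these alone.

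Less abundant peptides were carried by few nuclei. Ppy, the pancreatic polypeptide gene, had 11 UMIs in 4 wild-type and 130 UMIs in 9 knockout members, all of them peptide nuclei, a ratio of 7.56 (4.09 to 15.5). A single knockout nucleus held 50 of them. Ppy lies 5356 bases from the end of the Pyy gene model on the same strand of chromosome 11 (102099930 to 102101319), and Pyy showed no such difference. Sct, the secretin gene, was at 275 and 538 CPM, a ratio of 1.96 (1.48 to 2.61), and its sum was higher in both kinds of nuclei, at 2.53 (1.5 to 4.49) in Tph1 and 2.03 (1.45 to 2.87) in peptide nuclei. The share of nuclei with Sct was not higher, at 10 of 54 and 14 of 99 Tph1 nuclei and 8 of 31 and 11 of 46 peptide nuclei. Single members held up to 26 and 46 Sct UMIs. Nts had a ratio of 0.954 (0.693 to 1.32), with 44 of 67 and 54 of 100 UMIs in 1 nucleus of each library. Of 8 measured hormone genes, 3 were at least 1.5-fold higher, 3 lower and 2 in between, against 14.9% higher and 12.0% lower of all genes. The 3 lower were the rule genes Gcg, Insl5 and Cck, and Pyy, another rule gene, was in between. Cck had only 11 and 10 UMIs, a ratio of 0.581 (0.221 to 1.51).

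Transcription factors of the lineage were within 1.5-fold between the libraries. Of 14 measured, 0 were at least 1.5-fold higher and 0 lower, with a median log2 ratio of 0.00. Neurod1 had a ratio of 1.22 (1.00 to 1.48), Nkx2-2 1.11 (0.817 to 1.52), Rfx6 0.959 (0.740 to 1.25), Pax6 0.831 (0.615 to 1.13) and Etv1 0.884 (0.710 to 1.10). Within peptide nuclei the intervals of 2 of the 14 lay above 1. Neurod1 stood there at 365 and 798 CPM, a ratio of 2.19 (1.41 to 3.47), and Myt1 at 113 and 299 CPM (9 and 30 UMIs), a ratio of 2.64 (1.22 to 6.33). Of 21 granule and exocytosis genes 3 were higher (Chga, Chgb and Pcsk1, the prohormone convertase), 1 lower (Scgn) and 17 in between, with a median of -0.03. Pcsk1 had 13 and 40 UMIs, a ratio of 1.97 (1.03 to 4.01).

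Channels were mostly within 1.5-fold too, and receptors no more often than all genes, of which 4341 of 5933 were. Of 14 channels 0 were higher, 2 lower (Piezo2 and the calcium channel Cacna1d, 32 and 30 UMIs, with a ratio interval of 0.352 to 1.02) and 12 in between. Scn3a had a ratio of 0.913 (0.811 to 1.03). Of 9 receptors 2 were higher, 1 lower and 6 in between. Ffar2, a short-chain fatty acid receptor, had 17 and 70 UMIs, a ratio of 2.63 (1.53 to 4.77), against 0.985 in other epithelial nuclei. Gipr, the receptor for the incretin of the upper gut, had 19 and 53 UMIs, a ratio of 1.78 (1.04 to 3.19). Olfr78, which senses the same class of metabolites as Ffar2, had 0.702 (0.622 to 0.793).

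Immediate-early genes, which are switched on within minutes by many stimuli, gave the widest difference between the libraries. Egr1 had 21 UMIs in 9 wild-type members and 402 UMIs in 111 knockout members, or 84.9 (52.6 to 129.8) and 1040 CPM (941 to 1147), a ratio of 12.2 (7.90 to 20). Detection was 8.82% and 68.1% of members, or 2.94% and 38.0% after thinning to 500 UMIs. In peptide nuclei it was 0 of 31 (exact interval 0 to 11.2%) and 30 of 46, and in Tph1 nuclei 7 of 54 and 71 of 99. On the floor of 3 counts, the 0 of 31 allows a share of nuclei with an Egr1 UMI of up to 9.68%. The other epithelial nuclei showed the same direction, with detection in 3.05% and 62.0% and a ratio of 34.6.

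Most of the immediate-early list was higher in the knockout library, in the members and in other epithelium. Of 15 measured, 12 were at least 1.5-fold higher, 0 lower and 3 in between (Jun 1.42, Jund 1.21 and Mcl1 1.45), with a median log2 ratio of 1.05 in the members and 1.12 for the same genes in other epithelium. Fos had 7 and 94 UMIs, a ratio of 8.59 (4.01 to 21.9), against 7.17 in other epithelium, and Nr4a1, an orphan nuclear receptor, 1 and 36 UMIs, a ratio of 23.0 (3.88 to 934). Errfi1, a feedback inhibitor of the EGF receptor, had 16 and 134 UMIs, a ratio of 5.36 (3.18 to 9.64), against 2.18. The members' share of mitochondrial UMIs was 0.306% and 0.802%, against 0.291% and 0.567% in other epithelium, and its part in these results was not tested.

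**Figure D4:**
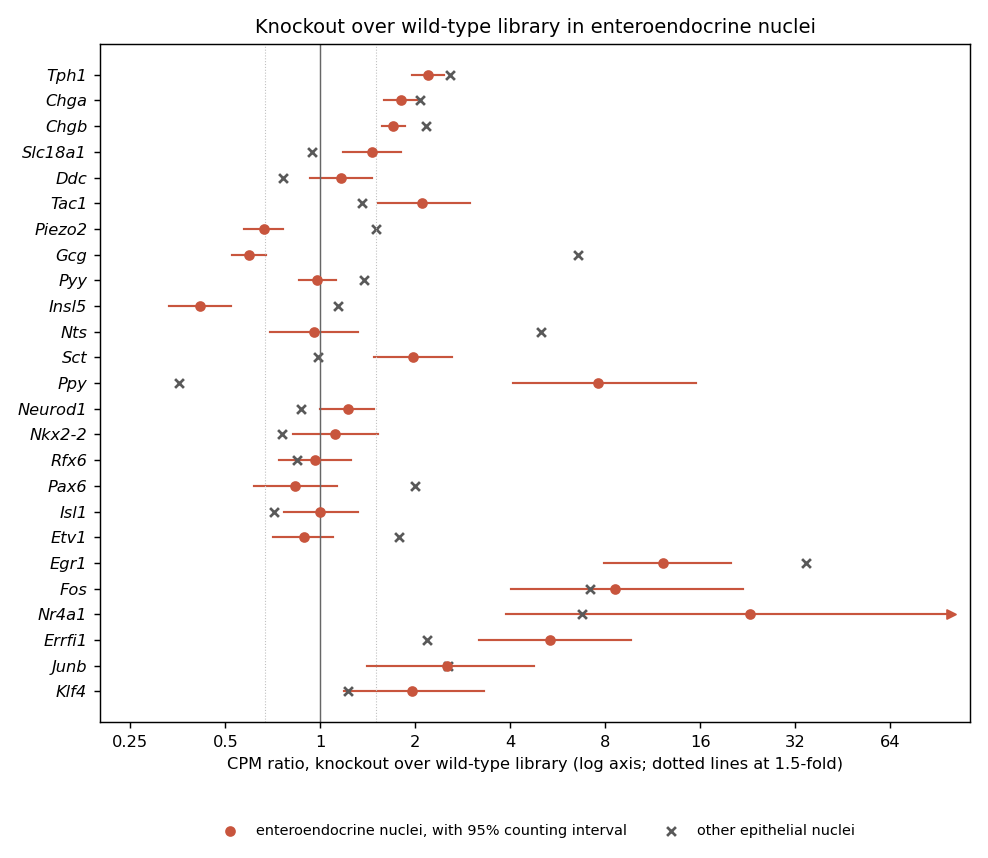
Ratio of CPM, knockout over wild-type library (log axis), for 25 genes in enteroendocrine nuclei (red, with 95% counting intervals; the arrow marks an interval that runs past the axis) and in other epithelial nuclei (crosses). Egr1 (12.2) and Fos (8.59) lie far to the right in both, Insl5 (0.415) and Piezo2 (0.661) to the left in enteroendocrine nuclei, and Neurod1, Nkx2-2 and Rfx6 near 1.

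The other genes at the high end were mostly carried by few nuclei. Sycn, a granule protein known from the exocrine pancreas, had 9 and 103 UMIs, a ratio of 7.32 (3.71 to 16.5), with 53 in 1 knockout nucleus and a gene model that lies within Samd4b on the other strand. Without the barcodes of highest doublet score its ratio was 1.42. Dlk1, a Notch-related ligand, had 1 and 26 UMIs, the latter in 9 Tph1 nuclei with up to 11 in one. Prlr, the prolactin receptor, had 0 UMIs in the wild-type and 25 in 8 knockout members, at least 5.33-fold higher on the floor of 3 counts, with 15 in 1 nucleus. Emp1, an epithelial membrane protein, had 3 and 42 UMIs, with 17 in 1 nucleus. Sgk1, a kinase induced by steroids and stress, was more widespread, with 4 and 50 UMIs in 4 and 23 members, a ratio of 7.99 (2.93 to 30.5) against 6.11 in other epithelium.

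At the low end, Gria2, a glutamate receptor subunit, had 52 and 31 UMIs in 21 and 19 members, a ratio of 0.381 (0.236 to 0.606). Dnal1, a dynein light chain, had 17 UMIs in 15 wild-type and 3 UMIs in 3 knockout members, a ratio of 0.113 (0.0212 to 0.390), against 0.759 in other epithelium. Trim7, a ubiquitin ligase, had 36 and 17 UMIs, a ratio of 0.302 (0.159 to 0.552). Snhg11, a small nucleolar RNA host gene, had 36 and 12 UMIs, but 18 of the 36 were in 1 nucleus, and Mptx1, a pentraxin of the gut lining, 29 and 11, with 12 of 29 in 1 nucleus. Osbpl8, Rreb1, Specc1 and Ccdc187 completed the 10 lowest with Insl5, at 15 to 27 wild-type and 5 to 11 knockout UMIs.

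Genes of mitochondrial removal and dynamics, the process in which Pink1 acts, were set beside all genes. Of all 5933 genes, 14.9% were at least 1.5-fold higher in the knockout members, 12.0% lower and 4341 genes in between. Of the 13 measured genes of this list, 1 was at least 1.5-fold higher (Mfn1), 4 lower (Bnip3l, Opa1, Map1lc3b and Ppargc1a) and 8 in between. Their median log2 ratio was -0.19 against -0.04 for the same genes in other epithelium. Only the interval of Ppargc1a, a coactivator of mitochondrial biogenesis, excluded 1 among those 5, at 14 and 8 UMIs and a ratio of 0.365 (0.133 to 0.933). Of 6 measured genes of the unfolded protein response 3 were higher and 0 lower, with a median of 0.60 against 0.45 in other epithelium. Hspa5, the chaperone of the endoplasmic reticulum, had 25 and 120 UMIs, a ratio of 3.07 (1.98 to 4.93). Of 11 circadian clock genes 1 was higher (Per1) and 3 lower (Per3, whose model overlaps Camta1 on the same strand, Nr1d2 and Tef), and Nr1d2 had a ratio of 0.505 (0.302 to 0.837) against 0.460 in other epithelium.

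Markers of absorptive colonocytes and of the epithelium at large were also higher in the knockout library, in the members and in other epithelium. Colonocyte markers summed to 684 and 1270 CPM in the members and to 2196 and 3366 CPM in other epithelium, and 4 of 7 measured were at least 1.5-fold higher and 0 lower. Their median log2 ratio was 0.61 in the members and 0.65 for the same genes in other epithelium. Slc26a3, the chloride exchanger of colonocytes, had 10 and 81 UMIs, a ratio of 5.18 (2.68 to 11.2) against 1.11 in other epithelium. General epithelial markers summed to 1541 and 2524 CPM in the members and to 2917 and 4370 CPM in other epithelium. In the members 6 of 12 were higher and 0 lower, with a median of 0.59 against 0.43 in other epithelium. The barcodes with the highest doublet scores were 632 of 8888 in the wild type and 1180 of 12146 in the knockout. These numbers were fixed in advance from the count of nuclei in each library. Among them were 13 of 102 wild-type and 28 of 163 knockout members, a larger share than of all nuclei in both libraries. The part of such nuclei in the results above was not tested beyond leaving those barcodes out, which gave 2.43 for Tph1, 1.71 for Chgb, 0.470 for Insl5, 14.8 for Egr1 and 9.88 for Ppy.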

How the data were processed

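Colon nuclei were stained, sorted and pooled from 3 mice per genotype before 10x Genomics 3′ library preparation, per the labels' protocols. The authors deposited raw UMI counts for each gene in each barcode. Per the file headers, Cell Ranger 6.1.2 wrote them. The submitters' processing notes name the builds mm10 and GRCm38. Annotation release, intron setting, strand setting and doublet removal were not given in the sources used here. Reads of overlapping and antisense genes cannot be told apart.

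Barcodes were kept with at least 500 UMIs, 300 genes and at most 10% mitochondrial UMIs (8888 of 8924 wild-type barcodes, 16997995 UMIs before filtering; 12146 of 12230 knockout barcodes, 22446326 UMIs). Epithelial nuclei had at least 2 UMIs of epithelial markers and more of them than of other lineages. Counts of members were summed per library. Genes were measured with at least 20 counts over both libraries, 0.5 was added to each count for log2 medians, and counts of 0 were set against a floor of 3. Intervals were exact and cover counting error only (Clopper-Pearson for shares, Poisson for sums, conditional binomial for ratios), since 1 library per genotype allows no test. On simulated counts of 5933 genes with 200 changed, the intervals covered the true ratio for 96.8% of genes, 99% of the changed genes were recovered, and 17.0% of unchanged genes passed 1.5-fold by counting noise. Clustering used scanpy 1.11.5 and leidenalg 0.10.2 and left out the rule genes and Muc2.

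Gene positions came from GENCODE M21 (32158 of 32285 IDs matched, 99.6%) and sequences from RefSeq. Named were Pink1, the rule genes, measured genes of the lists, the 16 genes leading over other epithelium and the 10 highest and 10 lowest in the knockout by the interval bound nearest to 1. Genes leading 1 of the 2 kinds of nuclei were chosen after their values were seen. The members, lists and rule were chosen with earlier results of these data known. Alternatives were other barcode filters, stricter and thinned members rules, doublet removal, equal weights per nucleus, subtraction of 5% free RNA, other count limits and each kind of nucleus alone. Added after the data were seen were clusters in place of the rule, Erbb3 allowed in the neuronal and glial limit, members that also meet the epithelial rule, and leaving out the deepest member or the nucleus with most UMIs of a gene. Some genes of the lists are counted with them and not reported here by name.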

Additional observations from a re-analysis of the deposited data

How the results depend on the processing

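No paired analysis was possible because each genotype has 1 library, and for the same reason no replicate could be left out. The number of genes at least 4-fold above other epithelium was 447 with at least 20 counts, 684 with at least 10 and 221 with at least 50. The number at least 1.5-fold higher in the knockout members was 883, and it was 1492 with at least 10 counts, 242 with at least 50 and 315 within peptide nuclei, where fewer genes were measured. Of the genes described, 2 that were higher in the knockout members had a ratio below 1 within peptide nuclei, Sycn at 0.952 (5 and 6 UMIs) and Tac1 at 0.793 (2 and 2 UMIs). Sycn was also 2.03 under the stricter barcode filter. These 5 recomputed counts moved by over 1.5 times, and 57 other recomputed shares, counts and list medians that answer a comparison stayed within 1.5 times or the counting interval. Of the other recomputed ratios and medians, 642 stayed within the counting interval of the reported value and 48 lay outside it on the same side of 1 or uncalled. The ratio of the share of enteroendocrine nuclei ranged from 1.05 to 1.48 over the alternatives, and the median of the immediate-early genes from 0.91 to 1.51. Ranges of single ratios were 1.79 to 2.43 for Tph1, 10.2 to 17 for Egr1, 0.123 to 0.540 for Insl5, 0.343 to 0.940 for Gcg and 5.33 to 44.1 for Ppy. The extremes 0.123, 0.343 and 44.1 came from applying the rule to thinned nuclei, which left 61 and 123 members, and the cause was not tested.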

Other observations

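The members with neither Tph1 nor a peptide of the L cells, 17 in the wild-type and 16 in the knockout library, are described here by their values. In the finer clustering 13 of the 17 wild-type ones fell in the Tph1 cluster and 3 in the peptide cluster, and of 18 knockout ones, the 2 with both kinds of UMI included, 6 and 9. The deepest nucleus held 12.7% of their UMIs in the wild type and 38.3% in the knockout. Slc38a11 had 76 UMIs in them in the wild type (2628 CPM) and 13 in the knockout (277 CPM), and Chgb 3216 and 1237 CPM. Without the deepest nucleus of each library Slc38a11 stood at 3010 and 138 CPM and Chgb at 3684 and 1590 CPM. Isl1 had 28 UMIs in 2 wild-type nuclei of this kind, 27 of them in 1 nucleus, and 60 UMIs in 7 knockout nuclei, 968 and 1280 CPM, against 21.6 and 0 CPM in Tph1 nuclei. Without the deepest nucleus of each library Isl1 stood at 39.6 and 2074 CPM. Prom1, a membrane protein of progenitor and other epithelial cells, stood at 346 and 341 CPM against 50.4 and 72.4 CPM in Tph1 and 25.1 and 39.9 CPM in peptide nuclei, from 10 and 16 UMIs, or at 238 and 415 CPM without the deepest nuclei. Neurog3, the factor that starts the lineage, was seen in 2 of 17 and 1 of 16. Nkx2-2 was seen in 8 of 17 and 11 of 16, and Rfx6 in 6 of 17 and 12 of 16, which are rule genes and so only describe these nuclei.

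Maoa, the enzyme that breaks down serotonin, had 17 wild-type and 7 knockout UMIs in Tph1 nuclei, a ratio of 0.243 (0.0853 to 0.617), and 7 and 8 UMIs in peptide nuclei, a ratio of 0.906 (0.287 to 2.94); the difference between the 2 kinds was not tested. Myh11, a smooth muscle gene, had 41 and 24 UMIs in the members, of which 33 in 1 wild-type nucleus, and its ratio of 0.374 became 1.02 without the nucleus with most UMIs in each library.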
